A study of Mus musculus with 72 samples.

Results

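The Slc25 genes encode the mitochondrial carriers, and their transcripts were followed here in the right atrium, left atrium and ventricle of adult mice whose aryl hydrocarbon receptor (AHR) was absent or had been engaged by dioxin before birth. Members were all count-table genes whose protein-coding mouse symbol begins with Slc25a, 47 of 24237 genes. The uncoupling protein genes, which belong to the same protein family under other names, were not included. The series holds 72 libraries, 3 for each combination of 4 groups, both sexes and 3 chambers. The groups were naïve Ahr+/+ mice (the controls), Ahr-/- mice lacking the receptor in every cell, and Ahr+/+ mice exposed before birth to the dioxin TCDD. Dams of the exposed mice received TCDD by gavage on 3 days of gestation. By the methods, the other Ahr+/+ dams received the corn oil vehicle by gavage. Ahr-/- dams, mated with Ahr-/- males, were left untreated, so Ahr-/- and naïve mice also differ in maternal gavage and maternal genotype. The low dose was 0.1 µg/kg and the high dose 1 µg/kg. All were C57BL/6J, and hearts were taken at about 10 months by the methods (9 months by the labels), long after exposure. The labels list TCDD as the treatment of all 72 samples, including the naïve and Ahr-/- ones, and give cardiomyocytes as the cell type, although the material was dissected chamber. Each heart was bisected and gave a library of each chamber, so the 3 chambers share animals, but the labels do not say which libraries came from the same mouse.

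Mitochondrial carriers are small proteins of the inner membrane, each of which moves a particular metabolite, nucleotide, cofactor or ion between the cytosol and the matrix. In heart muscle the ADP/ATP carrier exports newly made ATP, the phosphate carrier brings in phosphate for ATP synthesis, the carnitine/acylcarnitine carrier admits fatty acids for oxidation, and the aspartate/glutamate and oxoglutarate/malate carriers together form the malate-aspartate shuttle for reducing equivalents. AHR is a transcription factor that binds DNA as a dimer with ARNT, at a core element read on either strand, and TCDD is a potent, long-lived ligand of it.

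Library totals ran from 11873417 to 28789382 counts (median 19231739), and the 47 members together held between 0.392% and 1.30% of them. Levels are given in CPM, which divides each count by the library's total and a TMM factor that centres the libraries on most of their genes. Ahr was at 10.5 to 34.4 CPM in naïve libraries and at 2.29 to 8.65 CPM in Ahr-/- ones. In all, 16 libraries went against their labels. Among 48 atrium-labelled libraries, 8 had the atrial myosin light chain Myl4 at only 2.77 to 46.6 CPM, against at least 697 CPM in the rest. In 8 others, sex-linked transcripts were those of the opposite sex: 4 labelled female right atrium and 4 labelled male ventricle, and the latter held Myl4 at 643 to 4104 CPM. The ventricle libraries that kept their labels held Myl4 at 0.655 to 714 CPM, so the ranges overlapped. Library numbers run 1 to 48 and 49 to 72, and each combination of group, sex and chamber mixes both series. Of the 16, only libraries 4, 11, 23 and 24 were of the first. The rest stood at the same places in every group of the second. They were labelled female right atrium (50, 56, 62, 68), male left atrium (51, 57, 63, 69) and male ventricle (53, 59, 65, 71). Female left atrium libraries 52, 58, 64 and 70 count as keeping their labels, but these markers cannot tell left from right atrium. Values below follow the labels unless stated otherwise. Results for chambers and for dioxin in ventricle are also given without these 16 libraries, whereas the Ahr-/- and atrial group comparisons are given with them only. In the atrium-labelled libraries that kept their labels, the ventricular light chain Myl2 still ranged from 7.31 to 5231 CPM, against 3050 to 12733 CPM in ventricle. In bulk tissue, fewer cells of a type cannot be told apart from less RNA per cell.

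Most of the carrier transcripts came from 3 genes. Slc25a4, the ADP/ATP carrier of heart and skeletal muscle (chromosome 8, 46207168 to 46211062, GRCm38.p6), Slc25a3, the phosphate carrier (chromosome 10, 91116574 to 91124046), and Slc25a5, the ADP/ATP carrier found in most tissues (chromosome X, 36795597 to 36798808), made up a median of 71.5% of member counts in the 20 ventricle libraries that kept their labels. Per kb of coding sequence, Slc25a4 stood at a median of 4662 CPM in ventricle, Slc25a3 at 1648, the oxoglutarate/malate carrier Slc25a11 at 1002, Slc25a5 at 298 and the carnitine/acylcarnitine carrier Slc25a20 at 239. The first 4 of these kept that order in both atria, and there the NAD carrier Slc25a51 stood close to Slc25a20, at 133 against 114 CPM per kb in right atrium and at 127 against 131 in left atrium. Between these and the middle of the range came Slc25a51 at 158 CPM per kb in ventricle, the orphan carrier Slc25a34 at 151, the aspartate/glutamate carriers Slc25a12 (aralar) at 112 and Slc25a13 (citrin) at 89.8, and the glutathione carrier Slc25a39 at 92.7.

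Other members were sparse. Slc25a41 and Slc25a54 reached 10 counts in no library, and Slc25a2, Slc25a18, Slc25a43 and Slc25a48 did so in 1, 5, 6 and 5 libraries. The germ-cell ADP/ATP carrier Slc25a31 reached it in 17 libraries and the oxoadipate carrier Slc25a21 in 21. A count of 3 corresponds to 0.253 CPM in the shallowest library, so lower levels could not be told from absence there. Slc25a4 and Slc25a5 are close in sequence, and Slc25a5 has processed copies elsewhere in the genome. How reads matching several places were counted is not given in the sources used here, so the split between these 2 genes is uncertain.

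**Figure D1:**
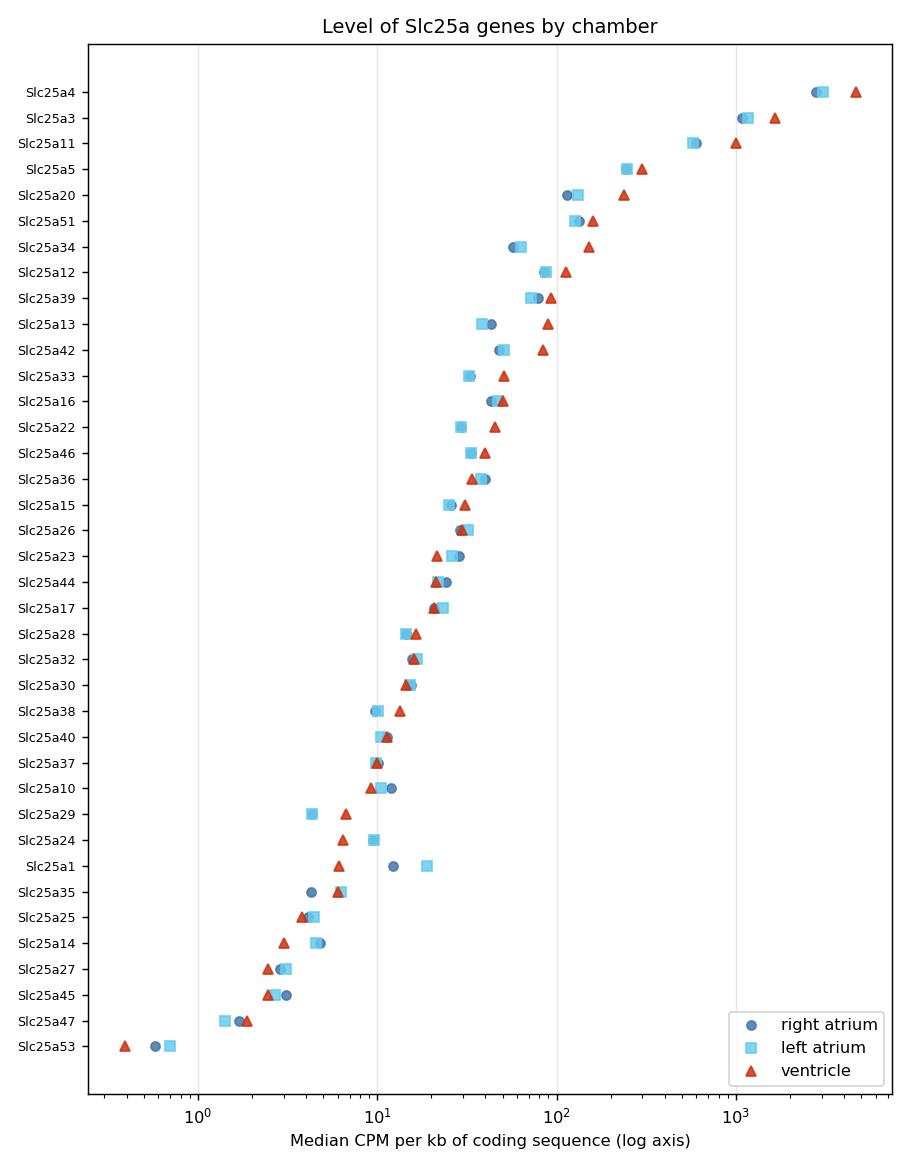
Median level of 38 of the 39 Slc25a genes that reached 10 counts in at least 36 libraries, in CPM per kb of coding sequence on a log axis, for right atrium (circles), left atrium (squares) and ventricle (triangles), over the 56 libraries that kept their labels. Slc25a4 lies at 4662 in ventricle and Slc25a53 at 0.391, and the ventricle symbols lie to the right of the atrial ones for most of the abundant carriers.

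The comparison of chambers asked where in the heart the carriers were most abundant, across all 4 groups and both sexes. Ventricle held more of the ADP/ATP carrier Slc25a4, the acylcarnitine carrier Slc25a20 and the shuttle carriers Slc25a11, Slc25a12 and Slc25a13 than either atrium, while the ADP/ATP carrier Slc25a5 was not called. Of 41 members tested, 13 were higher and 3 lower in ventricle than in right atrium (edgeR quasi-likelihood test, Benjamini-Hochberg adjusted p under 0.05 over all genes), and 9 were higher and 1 lower than in left atrium. The share of all tested genes called was 31.8% against right atrium and 18.9% against left atrium. The median log2 difference over members was 0.08 against right atrium and 0.14 against left atrium, beside -0.03 and -0.02 over all genes. Between left and right atrium no member was called (1 of 15824 genes, 0.00632%), and no member had an unadjusted p under 0.05. With DESeq2 in place of edgeR the count of members was also 0 between the atria.

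Slc25a4 was at 4002 ± 1234 CPM in ventricle, 2796 ± 827 in right atrium and 3076 ± 1065 in left atrium (mean ± SD, n = 24 libraries each). Its log2 difference was 0.51 ± 0.14 (SE) against right atrium (adjusted p = 0.00358) and 0.38 ± 0.14 against left atrium (adjusted p = 0.0469). Slc25a3 was higher than in right atrium by 0.43 ± 0.14 on the log2 scale (adjusted p = 0.0172), while its difference from left atrium, 0.38 ± 0.14, missed the threshold (adjusted p = 0.0505). For Slc25a5 the log2 differences were 0.13 ± 0.07 and 0.15 ± 0.07 (adjusted p = 0.155 and 0.121). Ventricle and atrium libraries overlapped in every one of these genes.

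Slc25a20, which admits acylcarnitines for fatty acid oxidation, was at a median of 210 CPM in ventricle (106 to 297), 122 in right atrium (62.9 to 234) and 127 in left atrium (55.5 to 299). Its log2 differences were 0.62 ± 0.14 against right atrium (adjusted p = 0.000848) and 0.54 ± 0.14 against left atrium (adjusted p = 0.00718). Of the malate-aspartate shuttle, Slc25a11 differed by 0.62 ± 0.14 and 0.52 ± 0.14 (adjusted p = 0.000829 and 0.00819), Slc25a13 by 0.71 ± 0.20 and 0.69 ± 0.20 (adjusted p = 0.00463 and 0.0117) and Slc25a12 by 0.23 ± 0.09 and 0.24 ± 0.09 (adjusted p = 0.0409 and 0.0453). All 3 shuttle carriers were thus higher in ventricle than in either atrium. The glutamate carrier Slc25a22, which works beside the shuttle, was higher than in right atrium (0.38 ± 0.12, adjusted p = 0.0159). Its difference from left atrium was 0.32 ± 0.12 (adjusted p = 0.0621).

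Some carriers of cofactors and other amino acids were also higher in ventricle. Slc25a42, the coenzyme A carrier, was higher by 0.49 ± 0.12 and 0.45 ± 0.12 (adjusted p = 0.00149 and 0.00718). The pyrimidine nucleotide carrier Slc25a33 was higher by 0.32 ± 0.12 and 0.34 ± 0.13 (adjusted p = 0.0432 and 0.0454), and Slc25a38, which supplies glycine for heme synthesis, by 0.25 ± 0.09 and 0.26 ± 0.09 (adjusted p = 0.0316 and 0.0391). Slc25a34, whose substrate is not established, had the largest difference from right atrium among called members, 0.85 ± 0.28 (adjusted p = 0.0166), and was at 131.7 ± 45.7 CPM in ventricle against 74.5 ± 48.1 there. Called in a single comparison were Slc25a29, a carrier of basic amino acids, at 0.39 ± 0.14 and Slc25a51 at 0.16 ± 0.06 against right atrium (adjusted p = 0.0226 and 0.0453), and the ornithine carrier Slc25a15 at 0.23 ± 0.08 against left atrium (adjusted p = 0.0328). The mitoferrins Slc25a37 and Slc25a28, which import iron, and the branched-chain amino acid carrier Slc25a44 were called in no chamber comparison.

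The members lower in ventricle were Slc25a14, a relative of the uncoupling proteins, and the calcium-regulated ATP-Mg/phosphate carriers Slc25a23 and Slc25a24. Slc25a14 was at 3.21 ± 0.926 CPM in ventricle, 4.46 ± 1.10 in right atrium and 4.27 ± 1.24 in left atrium, with log2 differences of -0.49 ± 0.12 and -0.43 ± 0.12 (adjusted p = 0.00193 and 0.0126). Slc25a23 and Slc25a24 were each lower by about the same amount against right atrium, -0.30 ± 0.12 (adjusted p = 0.0484 and 0.0468). Slc25a25, the third carrier of that group, was not called.

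The 16 libraries that went against their labels had been picked in part by the atrial marker Myl4. Leaving them out widened these differences, which is therefore no separate support for a chamber difference. Then 22 members were called against right atrium (16 higher and 6 lower, 53.6% of all genes called) and 23 against left atrium (16 higher and 7 lower, 51.2% of genes). The log2 difference of Slc25a4 became 0.89 ± 0.10 and 0.78 ± 0.10, that of Slc25a20 1.03 ± 0.10 and 1.00 ± 0.10, that of Slc25a13 1.19 ± 0.17 and 1.24 ± 0.16, and that of Slc25a34 1.49 ± 0.27 and 1.44 ± 0.26. In these libraries Slc25a20 ran from 139 to 297 CPM in ventricle and from 62.9 to 177 in right atrium, and Slc25a13 from 131 to 238 against 19.2 to 175. The right atrium library at 19.2 CPM, number 15, also held lung markers summing to 1762 CPM and adipocyte markers summing to 982 CPM. Left atrium library 21 held lung markers at 692 CPM, and left atrium library 64 T cell markers at 277 CPM. The part of such tissue in these ranges was not tested. The atrial libraries at the low end for Slc25a34, at 6.05, 7.20, 8.83 and 11.1 CPM, held Myl2 at 68.6, 8.13, 7.31 and 377 CPM, so the amount of ventricular transcript in the atrium-labelled libraries varied beside the carriers, and its part in the differences was not tested. Cardiomyocyte markers, summed over 5 genes, spanned 35731 to 105926 CPM in ventricle, 21453 to 67240 in right atrium and 27251 to 82736 in left atrium among the 56 libraries. Over all 72, the cardiomyocyte markers Actc1, Tnni3 and Ttn were called higher in ventricle than in right atrium (3 of 5) and none was called against left atrium. All 3 ventricular markers were called higher against right atrium, but none against left atrium. All 4 atrial markers were called lower against both atria. Of 3 endothelial markers, 1 was called higher and 1 lower against each atrium, and the skeletal muscle marker Tnnt3 was called lower against both. The fibroblast markers Dcn and Pdgfra were called lower against both atria (2 of 3), with sums of 820 to 1480 CPM in ventricle, 1103 to 2596 in right atrium and 1156 to 2537 in left atrium among the 56 libraries. The part of these cells in the carrier differences was not tested. With counts scaled by library size alone, the median of all genes fell by 0.191 and 0.152 on the log2 scale, and the split of called members turned to 6 higher and 12 lower against right atrium and 4 higher and 6 lower against left atrium. Slc25a4, Slc25a11, Slc25a13, Slc25a20, Slc25a34 and Slc25a42 remained higher against right atrium under that scaling. In the 18 naïve libraries alone no member was called by edgeR. The fit treats chambers of the same heart as independent, since the labels do not pair them.

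**Figure D2:**
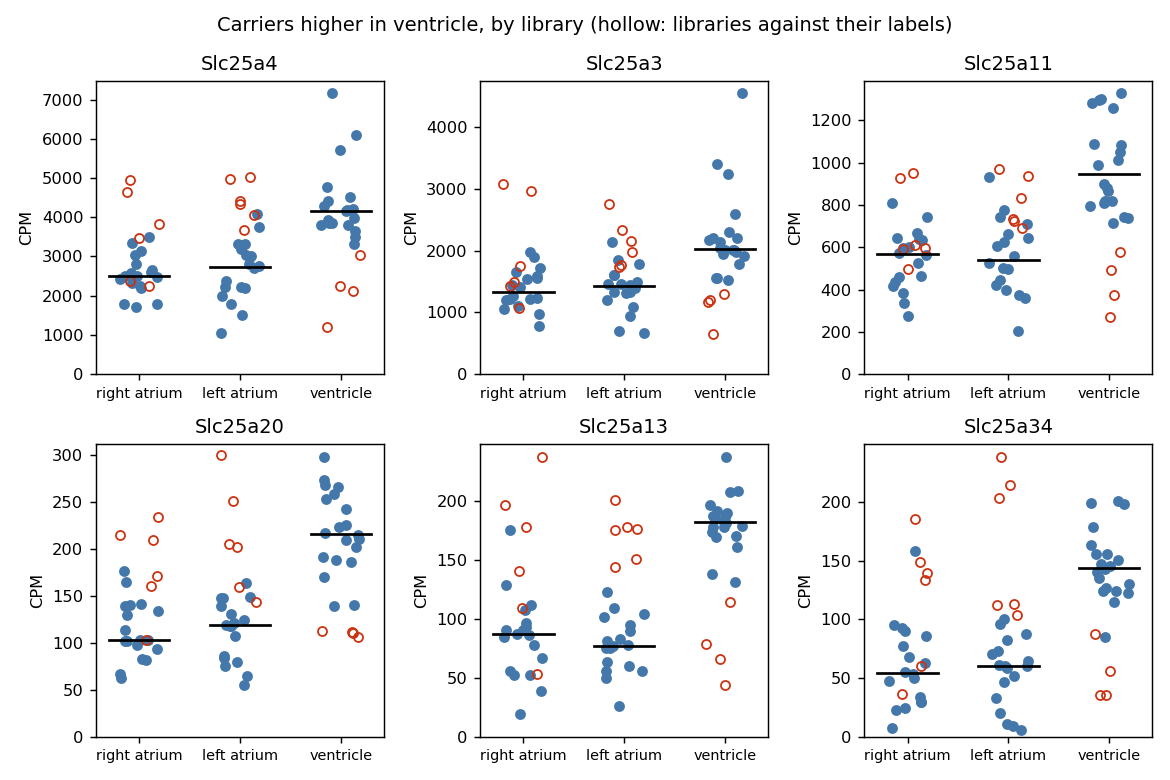
CPM of 6 carriers in each library by labelled chamber: filled points are libraries that kept their labels, hollow points the 16 that did not, and bars mark the median of the filled points. Hollow points in the atria tend to lie at ventricular heights and those in ventricle at atrial heights, as for Slc25a20, whose filled medians are 216 CPM in ventricle and 103 and 118 CPM in right and left atrium.

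The citrate carrier Slc25a1, which exports citrate for fatty acid synthesis, varied widely among atrial libraries. It ran from 2.23 to 11.3 CPM in the ventricle libraries that kept their labels, and from 6.02 to 101 CPM in right atrium and 5.82 to 145 CPM in left atrium. Its log2 difference between ventricle and left atrium was -0.98 ± 0.40 (adjusted p = 0.072), and without the 16 libraries -2.13 ± 0.33 (adjusted p = 6.98e-07). The libraries with most Slc25a1 also held adipocyte transcripts. The high-dose female left atrium library at 145 CPM had Adipoq (adiponectin, made by fat cells) at 162 CPM and Ucp1 (the brown fat uncoupling protein) at 279 CPM, and the Ahr-/- female right atrium library at 101 CPM had 145 and 69.7 CPM. The naïve female left atrium library with Slc25a1 at 8.33 CPM had Adipoq at 0.613 CPM. Summed over 6 adipocyte markers, right atrium spanned 5.88 to 982 CPM, left atrium 3.11 to 970 CPM and ventricle 4.50 to 18.7 CPM among the libraries that kept their labels. The part of fat in the Slc25a1 difference was not tested. Among libraries labelled male ventricle, the 4 with opposite-sex transcripts had Slc25a1 at 40.7, 13.6, 105 and 27.8 CPM, whereas the other 8 lay between 3.66 and 11.3 CPM.

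**Figure D3:**
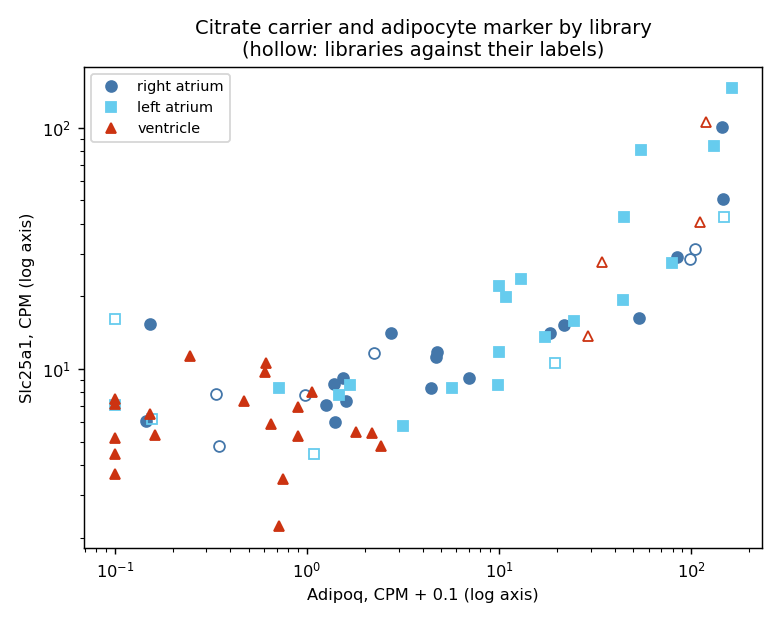
Slc25a1 CPM against Adipoq CPM plus 0.1, both on log axes, for 72 libraries by labelled chamber, with hollow symbols for libraries against their labels. Libraries with Adipoq under 3 CPM hold Slc25a1 at 16.0 CPM or less, and the highest point is the left atrium library at 145 CPM.

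The comparison of exposed with naïve mice asked whether prenatal dioxin left carrier transcripts altered in the adult heart. The clearest differences were in female ventricle at the high dose, where 10 of 39 tested members differed from naïve, 4 higher and 6 lower. Of all 14006 genes tested there, 23.7% were called, so the members' share was close to the background. The median log2 change over members was 0.09, and 0.01 over all genes. The abundant ADP/ATP, phosphate, acylcarnitine and shuttle carriers were not among those called. Values did not overlap between high-dose and naïve libraries for 12 of 39 members, beside 41.1% of all genes.

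Slc25a39, which carries glutathione into mitochondria, was at 69.2, 74.2 and 66.8 CPM in the naïve female ventricles and at 122, 99.3 and 146 CPM in the high-dose ones. Every high-dose library lay above every naïve one. The log2 change was 0.85 ± 0.14 (SE), with an adjusted p of 0.00196 by edgeR. Slc25a23 was at 27.7, 27.5 and 28.2 CPM in naïve and 54.2, 37.2 and 54.6 CPM in high-dose females (0.85 ± 0.16, adjusted p = 0.00337). Slc25a1 rose from 4.27 ± 1.77 to 8.47 ± 1.84 CPM (1.04 ± 0.31, adjusted p = 0.0295 by edgeR), and in these 6 libraries the summed adipocyte markers were 7.17 to 12.6 CPM in naïve and 4.50 to 9.43 CPM in high-dose mice.

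Among the members that fell, Slc25a36, a pyrimidine nucleotide carrier, was at 54.1, 54.1 and 54.8 CPM in naïve females and at 33.0, 34.8 and 28.1 CPM after the high dose (log2 change -0.72 ± 0.13, adjusted p = 0.00298). Slc25a24 was at 14.9, 12.6 and 12.5 CPM in naïve and 6.36, 7.35 and 6.93 CPM in high-dose females (-0.91 ± 0.19, adjusted p = 0.00526). It thus fell where its relative Slc25a23 rose, and the third carrier of that group, Slc25a25, was not called (0.31 ± 0.28, adjusted p = 0.453). Slc25a46, an outer membrane protein linked to mitochondrial shape rather than transport, fell from 68.2 ± 1.72 to 40.8 ± 7.93 CPM (-0.70 ± 0.15, adjusted p = 0.00527 by edgeR). Slc25a32, which carries flavin and folate, was at 18.9, 19.0 and 20.8 CPM and then 12.1, 11.2 and 10.7 CPM (-0.75 ± 0.17, adjusted p = 0.00688). Slc25a16, a carrier linked to coenzyme A, fell by 0.69 ± 0.18 on the log2 scale (adjusted p = 0.0145). Slc25a30, another relative of the uncoupling proteins, lay just inside the threshold (-0.51 ± 0.18, adjusted p = 0.05).

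In these female ventricles Slc25a4 was at 3798, 4192 and 3926 CPM in naïve and 3856, 3802 and 4186 CPM in high-dose mice. The 2 groups overlapped, and the log2 change was 0.03 ± 0.14 (adjusted p = 0.895). The changes were also small beside their errors for Slc25a3 (0.03 ± 0.13), Slc25a12 (-0.01 ± 0.13) and Slc25a51 (-0.02 ± 0.12). For Slc25a5 the change was 0.18 ± 0.13, for Slc25a20 0.22 ± 0.12, for Slc25a22 0.26 ± 0.15, for Slc25a42 0.31 ± 0.13, for Slc25a10, the dicarboxylate carrier, 0.45 ± 0.26, for Slc25a28 0.33 ± 0.17, for Slc25a37 0.23 ± 0.18, for Slc25a26, the S-adenosylmethionine carrier, 0.28 ± 0.16 and for Slc25a44 0.08 ± 0.16, none of which passed the threshold.

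By class, 3 of 8 tested carriers of other nucleotides and cofactors fell, 1 of 7 adenine nucleotide carriers rose and 1 fell, and 1 of 9 amino acid and glutathione carriers and 1 of 4 phosphate and carboxylate carriers rose. Both iron carriers and the acylcarnitine carrier were not called. Leaving out each of the 6 libraries in turn gave 7 to 12 called members. The calls of Slc25a39, Slc25a36, Slc25a23, Slc25a24, Slc25a46 and Slc25a32 held in all 6 fits. That of Slc25a1 was lost without naïve libraries 36 or 54 or high-dose library 66, that of Slc25a16 without naïve libraries 35 or 36, and that of Slc25a30 in 5 of 6 fits, all but the one without naïve library 54. In a single fit of all 4 female ventricle groups, which share their spread, only Slc25a24 passed (adjusted p = 0.0409) and 4.96% of genes did. Scaling by library size alone lowered the median of all genes by 0.173 on the log2 scale there, and the split was 2 higher and 7 lower.

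**Figure D4:**
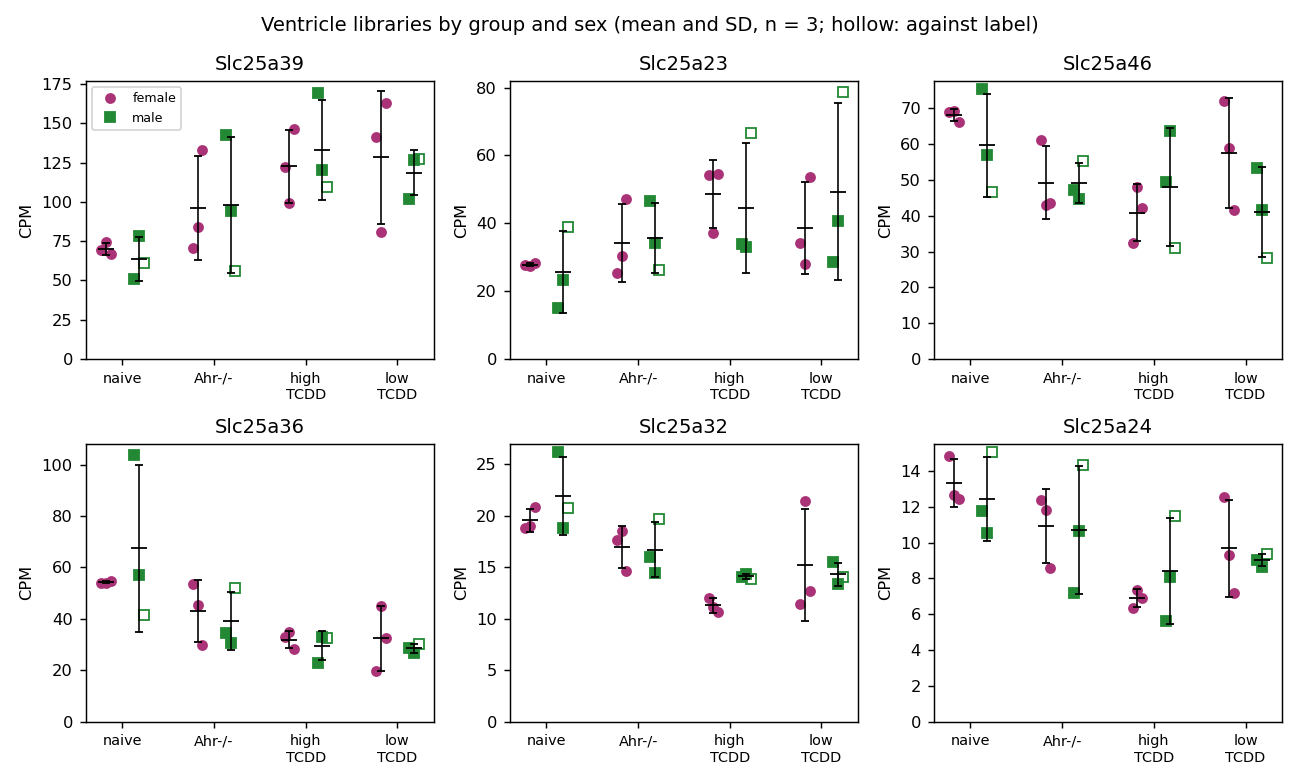
CPM of 6 Slc25a genes in each ventricle library by group and sex: circles are female and squares male libraries, hollow squares the 4 male-labelled libraries with opposite-sex transcripts, and bars the mean and SD of 3 libraries. In females, Slc25a39 and Slc25a23 lie higher and Slc25a46, Slc25a36, Slc25a32 and Slc25a24 lower after the high dose than in naïve mice, with no overlap.

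The members that moved also differed in base composition. Slc25a23, Slc25a1 and Slc25a39, which rose, had transcripts of 56.4%, 59.1% and 59.7% GC, the 6 that fell 40.7% to 45.4%, and the 29 not called 39.7% to 60.9%. Over all genes the median was 55.0% for those called higher and 43.5% for those called lower. Averaged over counts, transcript GC was 49.2% to 49.8% in the 6 naïve ventricle libraries and 50.3% to 51.0% in the 6 high-dose ones. When the trend of fold change with GC content was removed across all genes, an alternative chosen after seeing the data, 3 members were called in high-dose female ventricle, all higher (13.4% of genes). These were Slc25a39 (0.47 ± 0.12, adjusted p = 0.0203), Slc25a23 (0.53 ± 0.14, adjusted p = 0.0267) and Slc25a17, a peroxisomal carrier of adenine nucleotides and cofactors (0.52 ± 0.16, adjusted p = 0.0498). Slc25a36 was then at -0.31 ± 0.12 (adjusted p = 0.102) and Slc25a24 at -0.59 ± 0.19 (adjusted p = 0.0521). Whether base composition or exposure moved these values was not tested.

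**Figure D5:**
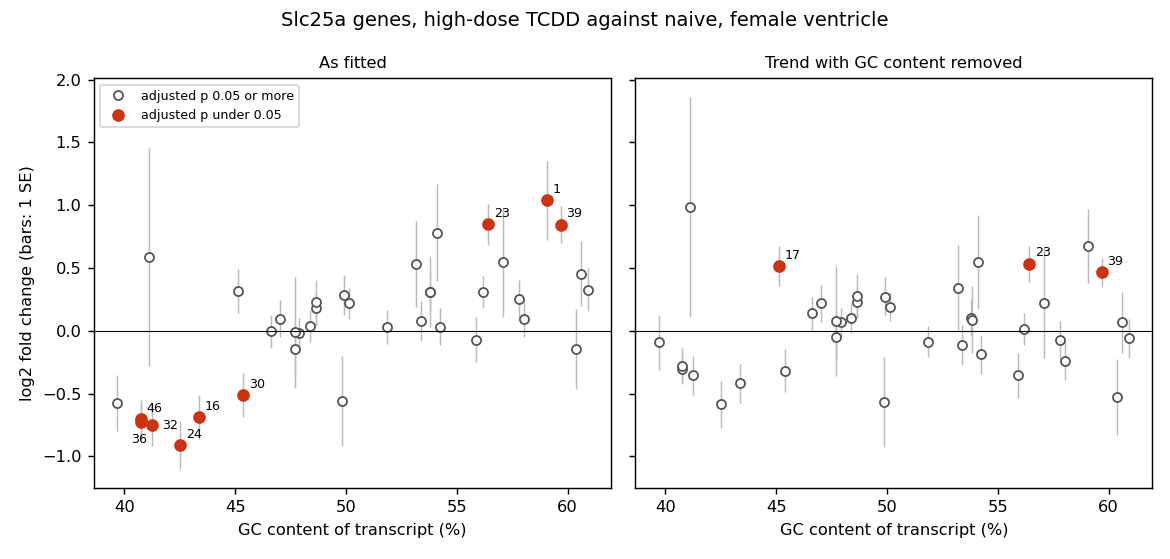
Log2 fold change of 38 Slc25a genes in high-dose against naïve female ventricle, with bars of 1 SE, against the GC content of the transcript in percent, as fitted (left) and with the trend over all genes removed (right). Filled points passed adjusted p under 0.05 and are numbered by member: 9 on the left, falling at 40.7% to 45.4% GC and rising at 56.4% to 59.7%, and 3 on the right.

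Cardiomyocyte markers were higher in the same female libraries, where their sum was 65014 to 105926 CPM after the high dose and 41479 to 56730 CPM in naïve mice. Of the 5, Actc1, Myh6, Tnni3 and Tnnt2 were called higher. Of 3 fibroblast markers, Dcn was called lower and the sums overlapped (879 to 1007 against 978 to 1448 CPM). The endothelial sum was 609 to 669 CPM against 461 to 608 CPM, and of its 3 genes Tie1 was called higher. Of 3 ventricular markers, Myl3 and Irx4 were called higher, with sums of 8146 to 11077 against 6244 to 8083 CPM. No atrial, adipocyte, red cell or T cell marker that was tested was called, and the lung markers, which were too low to test, summed to at most 0.377 CPM. Only 2 of 4 atrial markers were tested, with a median log2 change of -3.25. Atrial sums were 6.01 to 339 CPM in naïve libraries, the highest in library 35, and 3.39 to 36.5 CPM in high-dose ones. Of 3 skeletal muscle markers, Myh1 and Myh4 were called lower, the sums being 4.87 to 11.6 and 17.1 to 23.6 CPM. The part of these cell types in the carrier changes was not tested.

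Slc25a39 and Slc25a36 were the members with the smallest p in each direction. For each, the 250 bases before an annotated transcription start are therefore shown, in lower case. Each AHR core element, GCGTG on either strand (CACGC when read on the printed strand), is in capitals. The sequences are from RefSeq (GRCm38.p6), read 5′ to 3′ on the minus strand of chr11:102407518-102407767 for Slc25a39 and of chr9:97111042-97111291 for Slc25a36.
Slc25a39: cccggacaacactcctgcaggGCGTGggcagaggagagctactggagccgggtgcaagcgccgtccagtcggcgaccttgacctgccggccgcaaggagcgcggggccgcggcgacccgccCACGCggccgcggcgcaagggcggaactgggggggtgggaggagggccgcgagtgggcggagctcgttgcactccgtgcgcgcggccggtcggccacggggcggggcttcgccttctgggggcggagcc
Slc25a36: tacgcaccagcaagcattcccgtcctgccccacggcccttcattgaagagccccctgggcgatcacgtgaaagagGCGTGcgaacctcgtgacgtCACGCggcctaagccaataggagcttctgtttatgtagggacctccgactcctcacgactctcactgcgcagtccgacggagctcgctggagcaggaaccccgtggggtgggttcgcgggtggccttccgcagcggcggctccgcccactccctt
Each window holds 2 matches. The Slc25a39 window lies inside the annotated gene (102402969 to 102408675), before an internal start. That of Slc25a36 lies just outside its gene (97075281 to 97111041), so the windows are not placed alike. The window of Slc25a39 is 77.2% GC and that of Slc25a36 64.4%, beside a median of 52.4% over all windows. Of 36 members with a window, tested or not, 20 held the core (55.6%). Among all 27025 genes with a window 30.9% held it. Among the 10987 of them tested in high-dose female ventricle 48.0% did, a set narrowed by that test as the members were not. Slc25a23, Slc25a16, Slc25a1 and Slc25a30 also held it and Slc25a24 did not. A palindromic NRF1 sequence and the estrogen-related receptor sequence TCAAGGTCA, searched on both strands, were in no member window, and in 1.75% and 0.319% of those tested genes. A match is a string of letters and not a measured binding site.

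In male ventricle at the high dose no member was called by edgeR, nor was any other gene of 14162 (0%). Unadjusted p was under 0.05 for 5 of 39 members, beside 9.19% of all genes, and DESeq2 also called 0 members. Slc25a39 was at 50.9, 78.5 and 61.2 CPM in naïve and 169, 120 and 109 CPM in high-dose males, and Slc25a36 at 104, 57.2 and 41.5 CPM and then 23.0, 32.9 and 32.5 CPM. Neither gene overlapped between these groups, with log2 changes of 1.03 ± 0.28 and -1.21 ± 0.36 (both with adjusted p = 0.525). One library in each of these groups went against its label. Without them, in 2 libraries against 2, 5 members were called (15.9% of genes), among them Slc25a39 (1.13 ± 0.28, adjusted p = 0.0272) and Slc25a3 (0.97 ± 0.25, adjusted p = 0.0317) higher, and Slc25a36 (-1.55 ± 0.31, adjusted p = 0.0169) and Slc25a30 (-1.11 ± 0.33, adjusted p = 0.0445) lower.

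With both sexes together, sex being a term of the fit, 8 of 40 members were called in high-dose ventricle, 3 higher and 5 lower, beside 13.1% of genes. Slc25a39 (0.94 ± 0.16, adjusted p = 0.00937) and Slc25a23 (0.81 ± 0.24, adjusted p = 0.0416) rose. Slc25a32 (-0.70 ± 0.12, adjusted p = 0.00937), Slc25a36 (-0.96 ± 0.20, adjusted p = 0.0132), Slc25a16 (-0.69 ± 0.16, adjusted p = 0.0186), Slc25a24 (-0.74 ± 0.19, adjusted p = 0.025) and the glutathione carrier Slc25a40 (-0.63 ± 0.18, adjusted p = 0.0375) fell. Slc25a39 and Slc25a40, which carry the same substrate, thus moved in opposite directions. Without the libraries against their labels 11 members were called (24.9% of genes), Slc25a1, Slc25a30 and Slc25a46 being added. With the GC trend removed none was called by edgeR, the smallest adjusted p being that of Slc25a39 (0.0585, unadjusted p = 0.000777). Scaling by library size alone gave 1 higher and 6 lower.

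At the low dose, no member was called in female or male ventricle taken alone, where 0% of genes were called in either. Unadjusted p was under 0.05 for 7 of 38 members in females and 6 of 38 in males, beside 17.8% and 13.9% of genes, and DESeq2 called Slc25a39 in females and Slc25a39 and Slc25a36 in males. Together the sexes gave 6 of 40 members, beside 12.9% of genes. Slc25a39 was higher (0.86 ± 0.17, adjusted p = 0.0119), at 142, 81.1 and 163 CPM in females and 102, 127 and 127 CPM in males, all above the 6 naïve libraries at 50.9 to 78.5 CPM. Slc25a26 was also higher (0.67 ± 0.18, adjusted p = 0.0292), at 34.7, 33.2 and 35.7 CPM in low-dose against 24.4, 23.7 and 20.6 CPM in naïve females. Slc25a36 (-1.01 ± 0.23, adjusted p = 0.0163), Slc25a40 (-0.56 ± 0.17, adjusted p = 0.048), Slc25a16 (-0.64 ± 0.20, adjusted p = 0.0484) and Slc25a24 (-0.49 ± 0.15, adjusted p = 0.0491) were lower. Without the libraries against their labels the 6 called included Slc25a16, Slc25a20, Slc25a26, Slc25a36 and Slc25a39, and with the GC trend removed Slc25a39 alone (0.50 ± 0.12, adjusted p = 0.0445). The share of all genes called in these fits is not given, so the counts are not set against it. Both doses were set against the same naïve libraries, so the values at the 2 doses are not independent. One low-dose female library, number 47, had Slc25a4 at 7170 CPM and Slc25a3 at 4555 CPM, the highest of all ventricle libraries, together with the highest Myl2, 12733 CPM.

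The interaction of sex and group, which tests whether the change differed between males and females, was called for no member in any of 9 models, nor for any other gene (0%). At an unadjusted p under 0.05 there were 4 members for Ahr-/- in right atrium, 1 for Ahr-/- in left atrium, 1 for the high dose in left atrium and 0 in the other 6 models, and DESeq2 also called 0 members in each. Slc25a26 in left atrium came first among them, with male minus female changes of 1.39 ± 0.37 for Ahr-/- (adjusted p = 0.996) and 1.32 ± 0.38 for the high dose (adjusted p = 0.99). Without the libraries against their labels, Slc25a3 passed in high-dose ventricle (0.98 ± 0.24, adjusted p = 0.0203, 8.03% of genes). It stood there at 3401 and 3237 CPM in high-dose and 1524 and 1785 CPM in naïve males, and at 1909, 1980 and 2200 CPM in high-dose and 2011, 2146 and 1954 CPM in naïve females.

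The comparison of Ahr-/- with naïve mice asked what loss of the receptor left in the same tissues. No member was called in any chamber or sex by edgeR or DESeq2, where edgeR called 0.0216% of genes in female ventricle, 0% in the other 5 single-sex comparisons, and with both sexes 0.00655% in right atrium, 0.0132% in left atrium and 0.0347% in ventricle. Members with an unadjusted p under 0.05 numbered 3 of 39 in female right atrium (5.51% of genes), 4 of 40 in male right atrium (5.12%), 4 of 40 in female left atrium (13.7%), 2 of 39 in male left atrium (3.52%), 1 of 39 in female ventricle (9.45%) and 1 of 38 in male ventricle (4.23%). In female ventricle, Slc25a46 was lower by 0.44 ± 0.16 on the log2 scale with no overlap between groups (61.0, 43.1 and 43.6 against 69.1, 69.2 and 66.2 CPM, adjusted p = 0.515). Leaving out Ahr-/- library 39 brought Slc25a46 (-0.60, adjusted p = 0.0307 by edgeR) and Slc25a40 (-0.79, adjusted p = 0.0457 by edgeR) past the threshold. With both sexes together, Slc25a39 was at 0.56 ± 0.22 and Slc25a36 at -0.54 ± 0.21 (both with adjusted p = 0.364), beside 0.94 and -0.96 at the high dose against the same controls. In left atrium the smallest p was that of Slc25a36 (-0.71 ± 0.21, adjusted p = 0.239), and in right atrium that of Slc25a1 (1.36 ± 0.51, adjusted p = 0.502). Libraries that went against their labels are part of these fits, among them Ahr-/- female left atrium 23 and 24 and naïve female right atrium 4 and 50.

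In the atria no member was called at either dose, in either sex or with both together. These fits follow the labels, and naïve female right atrium libraries 4 and 50 and high-dose female right atrium libraries 11 and 62 went against theirs. The share of genes called was 0% in all 8 single-sex comparisons, and with both sexes 0.0732% for the high dose in right atrium and 0% in the rest. At the high dose, members with an unadjusted p under 0.05 numbered 4 of 38 in female right atrium (3.91% of genes), 4 of 40 in male right atrium (5.41%), 2 of 40 in female left atrium (8.42%) and 8 of 40 in male left atrium (11.4%). At the low dose they numbered 3 of 38 (4.27%), 5 of 41 (4.41%), 9 of 40 (17.6%) and 2 of 40 (1.6%) in the same order. In low-dose female left atrium DESeq2 called 4 members, among them Slc25a1, Slc25a36 and Slc25a39 (4.52% of genes). There the log2 change of Slc25a36 was -0.999 ± 0.21 and that of Slc25a39 1.05 ± 0.23 (both with adjusted p = 0.153). The estimate for Slc25a39 was above 0 and that for Slc25a36 below 0 in each of the 12 atrial comparisons with naïve mice, ranging from 0.25 to 1.05 and from -0.999 to -0.11, all against 4 sets of naïve libraries. Both genes had been picked for their small p in ventricle. How many other genes kept a single sign over these comparisons was not counted, so no conclusion is drawn from it. In low-dose male right atrium the smallest p was that of Slc25a34 (1.26 ± 0.24, adjusted p = 0.941), which DESeq2 called. With both sexes, DESeq2 also called 4 members in high-dose left atrium, among them Slc25a35, Slc25a36 and Slc25a39 (4.83% of genes). Slc25a34 was also the first by p in high-dose male right atrium (1.47 ± 0.40, adjusted p = 0.734). In high-dose female left atrium Slc25a1 was at 2.50 ± 0.99 (adjusted p = 0.592), its level there resting on the library at 145 CPM.

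Another 30 genes of mitochondrial transport and its regulation were tested beside the members. In high-dose female ventricle 7 were higher and 5 lower, beside 23.7% of all genes called. Both subunits of the mitochondrial pyruvate carrier, which belongs to a separate family, fell: Mpc1 by 1.18 ± 0.13 on the log2 scale and Mpc2 by 0.59 ± 0.14 (adjusted p = 0.00028 and 0.0102). The channel Vdac3 and the import chaperone Timm10 also fell. Mitochondrial creatine kinase Ckmt2 (0.81 ± 0.18, adjusted p = 0.00845), the ion exchanger gene Letm1 (0.58 ± 0.12, adjusted p = 0.00473), the calcium uniporter subunit Smdt1, Abcb8, Mtch1, Sfxn3 and the estrogen-related receptor gene Esrra rose. With both sexes, Mpc1 was at -0.49 ± 0.40 and Mpc2 at 0.03 ± 0.34 at the high dose (adjusted p = 0.457 and 0.966), and at -0.12 ± 0.35 and 0.24 ± 0.28 at the low dose (adjusted p = 0.857 and 0.609). In those fits 4 partners rose and 1 fell at the high dose (13.1% of genes called), and 3 rose and 0 fell at the low dose (12.9% of genes called), where these were Smdt1 (0.94 ± 0.20), Mtch1 (0.58 ± 0.16) and Esrra (0.50 ± 0.15). Between chambers, 15 of the 30 were higher and 4 lower in ventricle than in right atrium, and 8 higher and 3 lower than in left atrium, beside 31.8% and 18.9% of all genes called. The higher ones included Vdac1 (0.43 ± 0.09 and 0.33 ± 0.09), Ppif, which encodes cyclophilin D, and the transcriptional coactivator gene Ppargc1a. The lower ones included the sideroflexins Sfxn1, Sfxn3 and Sfxn4 in both comparisons.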

How the data were processed

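RNA was taken from dissected chambers, poly-A libraries were sequenced as single reads, and the authors demultiplexed reads with CASAVA 1.8 and aligned them to mm10 with TopHat. The deposited values are counts of reads on each gene's coding region, without normalization, in 72 libraries of 11873417 to 28789382 counts. The strand setting and the handling of reads that match several places are not given in the sources used here. Of 24237 gene identifiers 82 had no symbol in RefSeq (3.91% of counts), and these stayed in the fits. Counts were filtered with filterByExpr (at least 10 counts, total 15), scaled by TMM and tested with edgeR 4.0.16 quasi-likelihood fits in R 4.3.3, with p adjusted by Benjamini-Hochberg over all genes tested and a threshold of 0.05. Fits were tested on simulated data. Each group was compared with naïve mice in each sex and chamber (18 comparisons, 3 libraries against 3) and in each chamber with sex as a term (9). The interaction of sex and group (9 models) and the difference between chambers (3 contrasts) were tested as well. Single-gene permutation tests of 3 against 3 cannot go below p = 0.1, so only fits across all genes are given. The labels do not say that the 3 libraries of a group came from separate animals; by the study's methods they did. All members past the threshold were named, and where none passed, members with the smallest p, a set of main carriers and the partner genes that passed were given as values. Members, lists and this rule were chosen with earlier results of these data known. Alternatives were DESeq2 1.42.0, other scalings and filters, a library series term, fits without libraries that went against their labels or without each library in turn, and removal of trends with GC content or length, the last 2 chosen after seeing the data. Promoter windows of 250 bases before annotated starts, some of them inside a gene, came from RefSeq (GRCm38.p6). Plots used matplotlib 3.10.9. Values of 1 member and 1 partner gene are not reported here, although counts include them.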

Additional observations from a re-analysis of the deposited data

How the results depend on the processing

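Over 50 fold changes of called members, the alternatives gave 378 values with the direction and call kept, 117 with the direction kept and the call lost, and 1 reversed (Slc25a51 between ventricle and right atrium, a log2 difference of -0.0212 with scaling by library size alone). Calls were lost most often with the GC trend removed (23 of 50), with library size alone (18 of 50), with no filter (12), with the length trend removed (11), with all 4 groups in one fit (9 of 10) and in naïve libraries only (26 of 26). DESeq2 in place of edgeR called 1 member in low-dose male right atrium, 4 in low-dose female left atrium, 1 in low-dose female ventricle, 2 in low-dose male ventricle and 4 in high-dose left atrium with both sexes, where edgeR called 0. An adjusted p under 0.0001 left 0 members in high-dose female ventricle, in both doses with both sexes in ventricle and in both chamber comparisons. High-dose female ventricle gave 1 member with all 4 groups in one fit and 3 with the GC trend removed. With both sexes in ventricle, the GC trend removed left 0 at the high dose and 1 at the low dose, and the low dose gave 3 with no filter and 0 with the length trend removed. Without the libraries against their labels, 5 members were called in high-dose male ventricle, 1 in low-dose male ventricle, 1 in the interaction of sex and high dose in ventricle and 23 between ventricle and left atrium. In naïve libraries only, 0 were called between ventricle and either atrium. Leaving out each library in turn gave 0 to 2 members in Ahr-/- female ventricle (2 without library 39) and 0 to 1 in low-dose female ventricle (1 without library 48). The causes were not tested. Where a count of members under an alternative stands without the share of all genes called, it was not set against that background. High-dose female right atrium gave no value without the libraries against their labels, since 1 library was left in each group. No paired analysis was run, because the labels do not say which libraries came from the same mouse. Depth limits members under about 0.253 CPM in the shallowest library.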
